A study of Rattus norvegicus with 6 samples.

Results

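Hyaluronan is a very long, unsulfated sugar chain of the extracellular matrix, and the 9 genes described here make it, cut it or hold it in place. They are the synthases Has1, Has2 and Has3, the hyaluronidases Hyal1 and Hyal2, the cell surface receptor Cd44, and the matrix proteins Tnfaip6, Vcan and Hapln1. They were chosen as genes of this pathway, with earlier results of these data known, and looked up by symbol among the 21857 symbols of each count table. All 9 were found and tested among 12941 genes. The RNA-seq libraries came from neonatal rat cardiac fibroblasts (NRCFs), which are primary cells, here from the hearts of healthy Sprague-Dawley rats taken within 3 days of birth. The Vector group held 3 libraries of NRCFs transfected with the empty plasmid, with the genotype label WT. The other group held 3 libraries labelled FTO overexpression, from NRCFs transfected with a plasmid carrying rat FTO, an enzyme that removes methyl groups from adenosines in RNA. Both groups had thus been through transfection, and neither was an untreated culture. The strain label reads Noway in all 6 libraries. By the study's methods, cells were collected 48 h after transfection. The labels do not say whether the libraries of a group came from separate cultures, so the p-values measure the spread between libraries, which may be technical.

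In tissue, the synthases sit in the plasma membrane and extrude the growing chain from sugar nucleotides made in the cytosol. The chain is then bound by Cd44 at the cell surface and by link-module proteins in the matrix, among them versican (Vcan), the link protein that locks versican to hyaluronan (Hapln1) and TSG-6 (Tnfaip6), which transfers protein heavy chains onto it. Hyaluronidases cut the chain into fragments that are taken up and degraded in lysosomes. In the heart, hyaluronan and versican fill the cushions from which valves form, and cardiac fibroblasts are a source of both.

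Libraries held 13178952 to 17857999 counts. Levels are given as CPM, counts divided by library size with TMM scaling and multiplied up by a common constant, with factors of 0.995 to 1.005. Fto itself, the check of the labels, measured 88.3 ± 1.2 CPM with the empty plasmid and 92.3 ± 1.32 CPM with the FTO label (mean ± SD, n = 3 libraries each, as for all such values). The log2 fold change, libraries labelled FTO over Vector and called log2FC from here on, was 0.06 (SE 0.0468). Its adjusted p was 0.239 by edgeR's quasi-likelihood test with Benjamini-Hochberg adjustment, and the fold change had a 95% interval from 0.976 to 1.12. A rise of Fto was therefore not detected by the test. Its CPM did not overlap between the groups, with the libraries labelled FTO higher, and 70.3% of all tested genes showed no overlap in either direction. The paper reports checks of the FTO plasmid by qRT-PCR and protein, and does not say that these used the sequenced cultures. Each direction below is that of libraries labelled FTO. All comparisons below use the same test, and adjusted p-values cover all 12941 genes.

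Of the 9 genes, 7 rose at an adjusted p under 0.05 in the edgeR test, none fell and 2 did not pass (Has3 and Hapln1). Over all tested genes, 65.9% passed in either direction and 33.2% passed as higher, which is the share against which the 7 have to be read. Because of how the genes were chosen, these counts describe the 9 genes and test nothing about them as a group. At the threshold of the study's methods, which asks for a log2FC of 1 or more and a p under 0.05, 5 of the 9 were higher (Has1, Has2, Cd44, Tnfaip6 and Vcan), and 10.4% of all tested genes were. The levels of the groups did not overlap for 8 of the 9, always with the libraries labelled FTO on the higher side, while 70.3% of all tested genes showed no overlap in either direction. The share with no overlap on the higher side alone is not given here, so the 8 have no like background. Hapln1, which did not pass the test, is among the 8. The median log2FC of the 9 was 1.08, and that of all tested genes was 0.00.

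**Figure D1:**
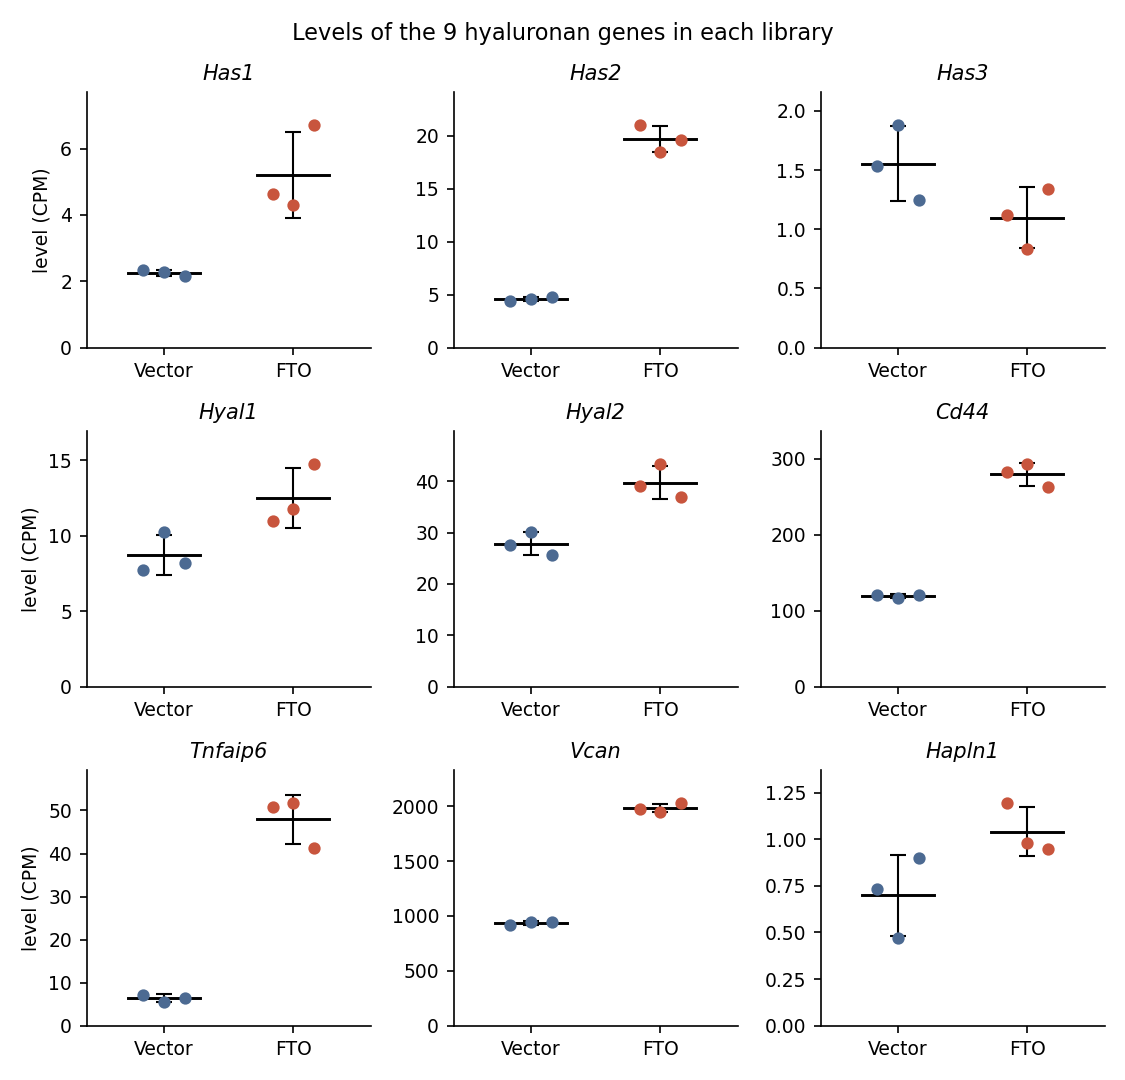
Levels of the 9 hyaluronan genes, with a panel per gene, the CPM of each library as points on an axis that starts at 0, and the group mean ± SD as bars (n = 3 libraries each). The points of the 2 groups are apart for every gene but Has3.

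RefSeq promoter sequences on the GRCr8 build, the 250 bases before the start of transcription, were given for 7 of the 9 genes, with 8 entries in all. Has2 and Has3 had no entry. Shown here are the promoters of Tnfaip6, the gene with the largest increase, and of Has1, a synthase that rose. Hyal2, which also rose, held matches only to other motifs searched, STAT and TEAD. Of the 7 genes, only Tnfaip6 and Has1 held a match to AP-1, CRE, C/EBP or NF-kB, the motifs chosen for marking. Capitals mark those matches, both sequences run 5′ to 3′ in the direction of the gene, and they lie at chr3:56911148-56911397 on the plus strand for Tnfaip6 and at chr1:67378445-67378694 on the minus strand for Has1.
Tnfaip6: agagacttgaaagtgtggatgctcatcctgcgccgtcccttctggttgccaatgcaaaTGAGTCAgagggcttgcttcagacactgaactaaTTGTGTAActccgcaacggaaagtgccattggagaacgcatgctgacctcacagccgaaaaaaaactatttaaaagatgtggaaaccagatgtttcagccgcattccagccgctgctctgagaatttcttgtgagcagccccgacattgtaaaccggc
Has1: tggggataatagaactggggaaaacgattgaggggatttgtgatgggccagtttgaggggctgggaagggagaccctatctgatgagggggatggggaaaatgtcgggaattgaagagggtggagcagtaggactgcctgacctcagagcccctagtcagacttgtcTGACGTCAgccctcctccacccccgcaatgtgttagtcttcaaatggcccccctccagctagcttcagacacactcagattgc

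Tnfaip6 held a match to AP-1, searched as TGANTCA, starting 192 bases before the start, and a match to C/EBP, searched as TTNNGNAA, at 158 bases. Has1 held the CRE letters TGACGTCA at 83 bases. Both strands were searched, and of 33469 promoters of the same length 6.34% held the AP-1 letters, 37.2% the C/EBP letters and 1.59% the CRE letters. NF-kB sites were searched by their consensus, found in 6.33% of promoters and in none of the 7 genes. The other motifs searched are not in capitals. GGAATG (TEAD, in 12.1% of promoters) was found in Tnfaip6 at 57 bases and in Hyal2 at 202 bases, where it overlapped a match to TTCNNNGAA (STAT, in 7.67%) at 200 bases. The interferon-response element ISRE, searched by its consensus and held by 3.41% of promoters, and the letters TATAAA of the core promoter, held by 12.9%, had no match in the 7 genes. Cd44, Vcan, Hapln1 and Hyal1 held none of the motifs in this window. A match is a run of letters and no evidence of binding.

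Of the 3 synthases, 2 rose. Has2, the main synthase of mesenchymal cells and the one required for heart cushions in the embryo, was at 4.39, 4.63 and 4.78 CPM in Vector libraries 1, 2 and 3. It was at 21.0, 18.5 and 19.5 CPM in libraries 1, 2 and 3 labelled FTO. Every library labelled FTO was thus far above every Vector library, and the groups did not overlap. The means were 4.60 ± 0.196 and 19.7 ± 1.24 CPM, a 4.27-fold rise, with a log2FC of 2.09 (SE 0.113) and an adjusted p of 2.19e-10. Among all tested genes, 4.36% had a larger log2FC. In the current RefSeq annotation Has2 overlaps a long non-coding RNA gene, LOC108351495. Whether the counting used strand is not stated, so the Has2 counts are uncertain to that extent.

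Has1, a synthase with low basal expression in most cells, had 32, 34 and 31 counts in the Vector libraries, or 2.34, 2.28 and 2.15 CPM. In the libraries labelled FTO it had 66, 57 and 120 counts, or 4.63, 4.30 and 6.70 CPM. The third of these stood above the other two, which lay close together, and all were above the Vector libraries. Has1 rose 2.34-fold, from 2.26 ± 0.0995 to 5.21 ± 1.30 CPM, with a log2FC of 1.23 (SE 0.212) and an adjusted p of 1.17e-04. Without FTO library 3 the log2FC was 0.98, which still passed the adjusted threshold, and then 4 of the 9 genes cleared the threshold of the study.

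Has3, the synthase that makes shorter chains, had a lower mean in the libraries labelled FTO but did not pass the test. It had 21, 28 and 18 counts in the Vector libraries and 16, 11 and 24 in the libraries labelled FTO. In CPM these were 1.54, 1.88 and 1.25 against 1.12, 0.831 and 1.34, so the groups overlapped. The log2FC was -0.47 (SE 0.296), its 95% interval ran from -1.11 to 0.16, and the adjusted p was 0.172. At 11 to 28 counts a library the estimate was imprecise, and the interval holds both no change and a log2FC of -1.11.

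The share of each synthase in the counts of all 3 differed between the groups as well. These are shares of counts and do not correct for transcript length, so they describe the change between libraries and not the abundance of one synthase against another. Has2 took 53.1%, 52.7% and 58.5% of the synthase counts in the Vector libraries and 78.5%, 78.3% and 70.9% in those labelled FTO. The exact 95% binomial intervals of Has2 reached at most 67.5% in the Vector group and started at 66.6% or above in the other, so they overlapped only between Vector library 3 and FTO library 3. Has3 was at 18.6%, 21.4% and 15.3% against 4.20%, 3.51% and 4.86%, and Has1 was at 28.3%, 26.0% and 26.3% against 17.3%, 18.2% and 24.3%. The highest Has1 share of the libraries labelled FTO again came from library 3. The shares rest on 113, 131 and 118 synthase counts in the Vector libraries and on 381, 313 and 494 in the others, and the intervals cover counting error only. The 3 synthases summed to 8.17 to 8.79 CPM in the Vector libraries and to 23.6 to 27.6 CPM in those labelled FTO.

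**Figure D2:**
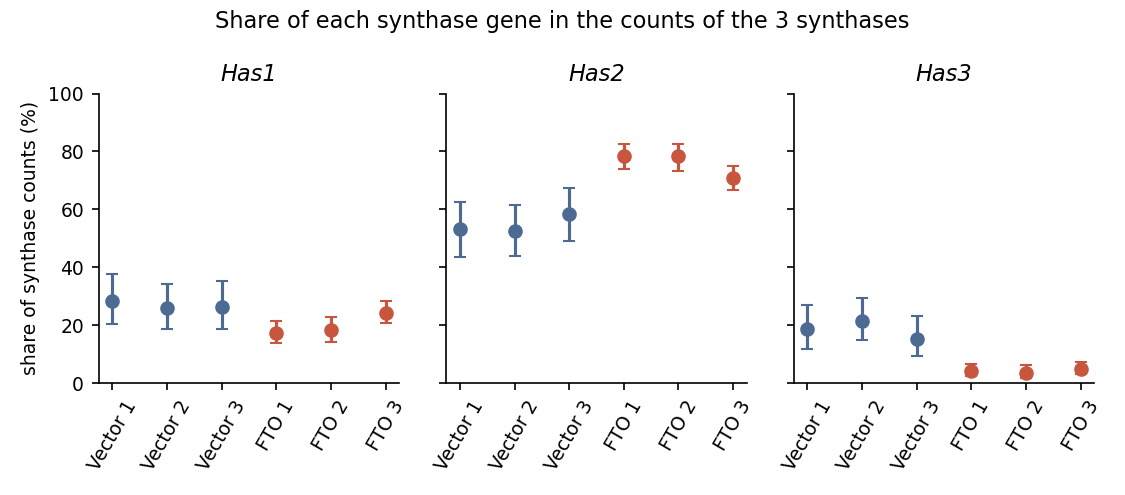
Share of each synthase gene in the summed counts of Has1, Has2 and Has3, in percent, for each of the 6 libraries, with exact 95% binomial intervals as bars. The Has2 share lies between 52.7% and 58.5% in the Vector libraries and between 70.9% and 78.5% in the libraries labelled FTO, while the Has3 share lies at 15.3% or above and at 4.86% or below.

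Both hyaluronidases rose by less than the study's threshold. Hyal2, a membrane-anchored enzyme that makes the first cuts in long chains, was at 27.7, 30.1 and 25.6 CPM in the Vector libraries and at 39.1, 43.3 and 36.9 CPM in those labelled FTO. The lowest library labelled FTO was above the highest Vector library. Hyal2 rose 1.42-fold, from 27.8 ± 2.26 to 39.7 ± 3.26 CPM, with a log2FC of 0.51 (SE 0.0808) and an adjusted p of 5.09e-05.

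Hyal1, the lysosomal enzyme that cuts the fragments further, was at 7.75, 10.3 and 8.17 CPM in the Vector libraries. In the libraries labelled FTO it was at 11.0, 11.8 and 14.7 CPM. The groups did not overlap, but Vector library 2 lay close under FTO library 1. Hyal1 rose 1.44-fold, from 8.73 ± 1.35 to 12.5 ± 1.97 CPM, with a log2FC of 0.53 (SE 0.141) and an adjusted p of 0.00410. In the current RefSeq annotation Hyal1 overlaps Naa80 and Hyal3, and it is not stated whether the counting used strand, so its counts are uncertain to that extent. The neighbour Naa80, listed under its older symbol Nat6, also rose, from 14.8 ± 0.993 to 24.8 ± 1.55 CPM (log2FC 0.75, adjusted p 2.67e-06), while Hyal3, from the same cluster of genes, fell from 8.0 ± 1.06 to 4.90 ± 0.964 CPM (log2FC -0.70, adjusted p 0.00157). Nat6 and Hyal3 are named here because of these values. Within libraries, the log2 ratio of Hyal1 to Hyal2 was -1.68 ± 0.143 in the Vector group and -1.68 ± 0.307 in the libraries labelled FTO, with overlapping values.

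The receptor and 2 of the 3 matrix proteins that bind hyaluronan rose. Tnfaip6, a secreted protein induced in inflammation and ovulation, was at 7.17, 5.43 and 6.51 CPM in the Vector libraries. It was at 50.9, 51.7 and 41.3 CPM in the libraries labelled FTO. Libraries 1 and 2 of these lay together, library 3 was lower, and all were far above the Vector libraries. Tnfaip6 rose 7.51-fold, from 6.37 ± 0.876 to 47.9 ± 5.78 CPM, with a log2FC of 2.91 (SE 0.117) and an adjusted p of 6.46e-12. This was the largest change of the 9 genes, and 2.60% of all tested genes had a larger log2FC.

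Cd44, the main surface receptor for hyaluronan, was at 120, 117 and 121 CPM in the Vector libraries and at 282, 293 and 264 CPM in those labelled FTO. The spread within the groups was small against the distance between them. Cd44 rose 2.34-fold, from 119 ± 2.32 to 280 ± 14.9 CPM, with a log2FC of 1.23 (SE 0.0478) and an adjusted p of 4.21e-12.

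Vcan, the large chondroitin sulfate proteoglycan that binds hyaluronan through its amino-terminal domain, had the highest counts of the 9, with a mean of 21749 a library. It was at 915, 947 and 945 CPM in the Vector libraries and at 1971, 1951 and 2026 CPM in those labelled FTO. The groups were widely apart and the libraries of each lay close together. Vcan rose 2.12-fold, from 936 ± 17.8 to 1983 ± 38.5 CPM, with a log2FC of 1.08 (SE 0.0378) and an adjusted p of 1.05e-12. The 95% interval of the log2FC, from 1.0 to 1.16, began at the study's threshold.

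Hapln1, next to Vcan on the chromosome, was the least counted of the 9, with 10, 7 and 13 counts in the Vector libraries and 17, 13 and 17 in those labelled FTO. These were 0.732, 0.470 and 0.900 CPM against 1.19, 0.982 and 0.949 CPM. The groups did not overlap, by a margin smaller than the spread within either, and the log2FC of 0.56 (SE 0.351) had an adjusted p of 0.169. Its 95% interval, from -0.18 to 1.31, holds both no change and the size of the change of Vcan. Hapln1 was also the only member that cleared the count filter in fewer than all libraries, in 2 of 3 Vector libraries and in all 3 labelled FTO.

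**Figure D3:**
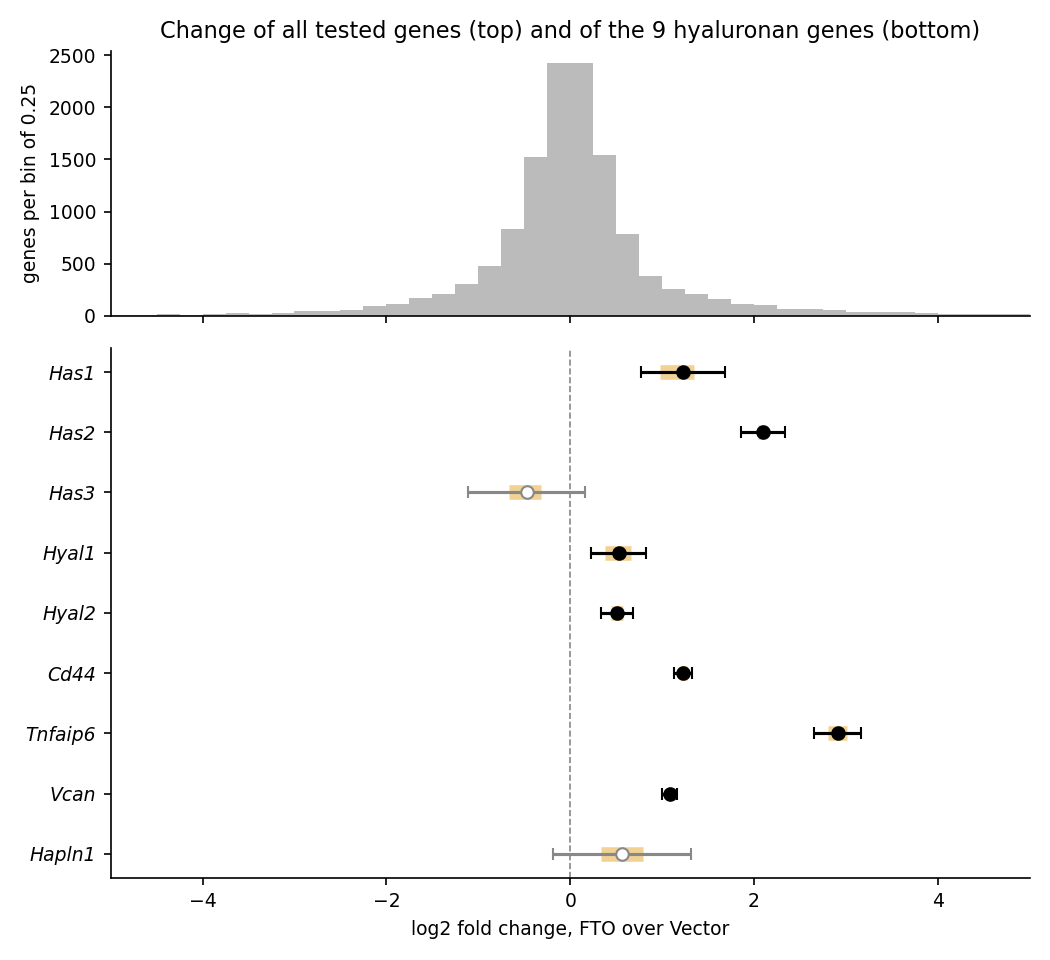
Top, log2FC values of the tested genes that lie between -5 and 5, counted in bins of 0.25. Bottom, the same scale for each hyaluronan gene with its 95% interval, where filled points passed an adjusted p of 0.05, open points did not, and the shaded band is the range over the alternatives in processing. Tnfaip6 at 2.91 and Has2 at 2.09 lie farthest to the right, and the intervals of Has3 and Hapln1 cross 0.

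The genes that rose did not rise to the same extent. Within each library, the log2 ratio of Tnfaip6 to Vcan went from -7.21 ± 0.226 in the Vector group to -5.38 ± 0.208 in the libraries labelled FTO, a difference of 1.83 with no overlap. The log2 ratio of Cd44 to Has2 went the other way, from 4.70 ± 0.0683 to 3.83 ± 0.134, a difference of -0.87 with no overlap, so that Has2 rose more than the receptor. Between the synthases, the log2 ratio of Has1 to Has2 differed by -0.92 and that of Has3 to Has2 by -2.60, both with no overlap. The log2 ratio of Hapln1 to Vcan differed by -0.47, with overlapping values. These ratios are free of library scaling and are given without a test.

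The wider pathway was read from 8 lists with 62 genes, of which Itih5 was not analysed here and 47 of the other 61 passed the filter on low counts. Of the 47, 20 rose, 19 fell and 8 did not pass, so 83.0% were called, with a median log2FC of 0.01, where 65.9% of all tested genes were called, 33.2% as higher and 32.8% as lower. Of the 47, 6 cleared the filter on low counts in every library of only 1 group (Acan, Hapln3, Itih2, Il1a, Il1b and Osm). For all of these but Hapln3, which did not pass the test, being tested and being higher in that group went together. Among the other 41, 17 rose, 17 fell and 7 did not pass. Higher and lower genes were thus equally many over the 8 lists together. Hapln3 and Osm are named after their values were seen, and the tallies by list below have the same background shares.

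Hyaluronan is built from UDP-glucuronic acid and UDP-N-acetylglucosamine, and of the 9 genes for their supply 4 rose, 3 fell and 2 did not pass. Gfpt2, an isoform of the enzyme that opens the hexosamine pathway, rose 7.97-fold, from 73.3 ± 4.89 to 584 ± 20.9 CPM (adjusted p 3.33e-16). Uap1, which makes UDP-N-acetylglucosamine in the last step of that pathway, rose 5.89-fold, from 57.7 ± 0.460 to 340 ± 23.5 CPM (adjusted p 2.79e-15). Ugdh, singled out after its values were seen because it makes UDP-glucuronic acid, rose 3.63-fold, from 177 ± 3.80 to 645 ± 17.2 CPM (adjusted p 4.81e-15). The genes that fell did so by little. Pgm3, a middle step, fell by 0.27 on the log2 scale (adjusted p 9.21e-04) and Gfpt1, the other isoform at the entry, fell by 0.22 (adjusted p 0.00267).

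Among the other breakdown enzymes, 1 of 6 tested genes rose, 4 fell and 1 did not pass. Cemip, which mediates hyaluronan breakdown in fibroblasts, fell from 1094 ± 23.4 to 153 ± 37.2 CPM, a log2FC of -2.83 (adjusted p 8.32e-12). Tmem2, the older symbol of Cemip2, a related surface protein, rose from 71.2 ± 2.86 to 275 ± 28.7 CPM, a log2FC of 1.95 (adjusted p 9.31e-13). The paralogs thus went in opposite directions, and Cemip fell by more than either hyaluronidase rose. Hyal4, Spam1 and Chia were at or under 3 counts in every library.

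Of 6 other hyaluronan receptors tested, 2 rose, 1 fell and 3 did not pass. Those that did not pass, named after their values were seen, were Lyve1, Hmmr and Layn. Lyve1 had a log2FC of 0.74 (adjusted p 0.0792), Hmmr of -0.03 (adjusted p 0.667) and Layn of 0.13 (adjusted p 0.189). The toll-like receptors Tlr2, from 35.2 ± 1.30 to 173 ± 16.1 CPM (adjusted p 1.83e-13), and Tlr4, from 17.4 ± 0.673 to 31.9 ± 2.82 CPM (adjusted p 2.61e-07), rose. Stab1, a scavenger receptor of macrophages and sinusoidal endothelium, fell from 112 ± 5.85 to 2.97 ± 0.400 CPM (log2FC -5.22, adjusted p 3.03e-16). Macrophages also express Cd44, Tlr2 and Stab1, and their markers moved with the groups. Of 11 macrophage markers 2 rose and 9 fell (7 of 9 without C1qb and C1qc, which cleared the filter in no library labelled FTO), and the list summed to 699 to 721 CPM in the Vector libraries and to 211 to 239 CPM in those labelled FTO, where C1qb and C1qc were at 1 to 2 counts. The part of this in the values of Cd44, Tlr2 and Stab1 was not tested. In such bulk libraries fewer cells of a type and less RNA per cell cannot be told apart.

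Proteins that share the matrix with the 9 genes also differed. Acan, the cartilage lectican that binds hyaluronan as versican does, fell from 82.8 ± 1.89 to 0.428 ± 0.0970 CPM, or from between 1106 and 1234 counts to 6, 7 and 6 (log2FC -7.60, adjusted p 9.09e-17), while Hapln3 was at 15, 13 and 14 against 15, 9 and 21 counts and did not pass. Acan cleared the filter on low counts in 3 Vector libraries and in 0 labelled FTO, so it was tested only through the group where it was high. By level alone, Acan was lower and Vcan higher in the libraries labelled FTO. Of the partners of Tnfaip6 in heavy chain transfer and cross-linking, only Ptx3 and Itih2 were tested, and Itih2 cleared the filter in no Vector library. Ptx3, a pentraxin that binds Tnfaip6 and heavy chains, rose 40.7-fold, from 40.4 ± 2.26 to 1644 ± 49.1 CPM (adjusted p 9.38e-19). Itih2, a heavy chain precursor singled out after its values were seen, had 3, 3 and 0 counts in the Vector libraries and 10, 10 and 22 in those labelled FTO, at least 4.29-fold higher in mean CPM against a floor of 3 counts per library. Itih1, Itih3 and Ambp were at or under 3 counts in every library.

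The linkers of Cd44 to actin and the proteases that shed it were split, with 3 of 6 higher and 3 lower. Adam17 rose from 114 ± 5.25 to 239 ± 3.45 CPM (adjusted p 1.34e-11) and Adam10 from 96.1 ± 0.865 to 113 ± 11.1 CPM (adjusted p 0.00439), both sheddases. The linkers Ezr, with a log2FC of -1.02 (adjusted p 7.26e-10), and Msn, with -0.42 (adjusted p 1.98e-07), fell.

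Of 6 proteases of the ADAMTS family that cleave versican, 4 rose, 1 fell and 1 did not pass. Adamts15 rose 12.6-fold, from 14.6 ± 1.79 to 184 ± 13.9 CPM (adjusted p 3.99e-15), and Adamts9 rose 3.83-fold, from 32.3 ± 2.32 to 123 ± 11.6 CPM (adjusted p 3.48e-12). Adamts1 fell by 0.50 on the log2 scale, from 326 ± 4.43 to 231 ± 6.46 CPM (adjusted p 3.38e-08). Vcan and most of the proteases that cut it were therefore higher in the same libraries.

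Factors known to induce hyaluronan synthases moved both ways, with 4 of 10 tested genes higher and 6 lower. Without Il1a, Il1b and Osm, which cleared the filter in every library of only 1 group, 2 of 7 were higher and 5 lower. Il1a had 0, 1 and 1 counts in the Vector libraries and 436, 396 and 523 in those labelled FTO, at least 143-fold higher in mean CPM against the floor of 3 counts per library. Il1b had 10, 7 and 1 against 507, 523 and 624 counts (adjusted p 6.01e-13). Both encode interleukin-1, an inducer of Has2 and Tnfaip6 in many mesenchymal cells. The growth factor genes Pdgfa, from 58.3 ± 1.96 to 18.4 ± 1.99 CPM (adjusted p 3.83e-11), and Pdgfb, from 2.03 ± 0.276 to 0.929 ± 0.373 CPM (adjusted p 0.00390), fell. Tnf had no count in any library.

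**Figure D4:**
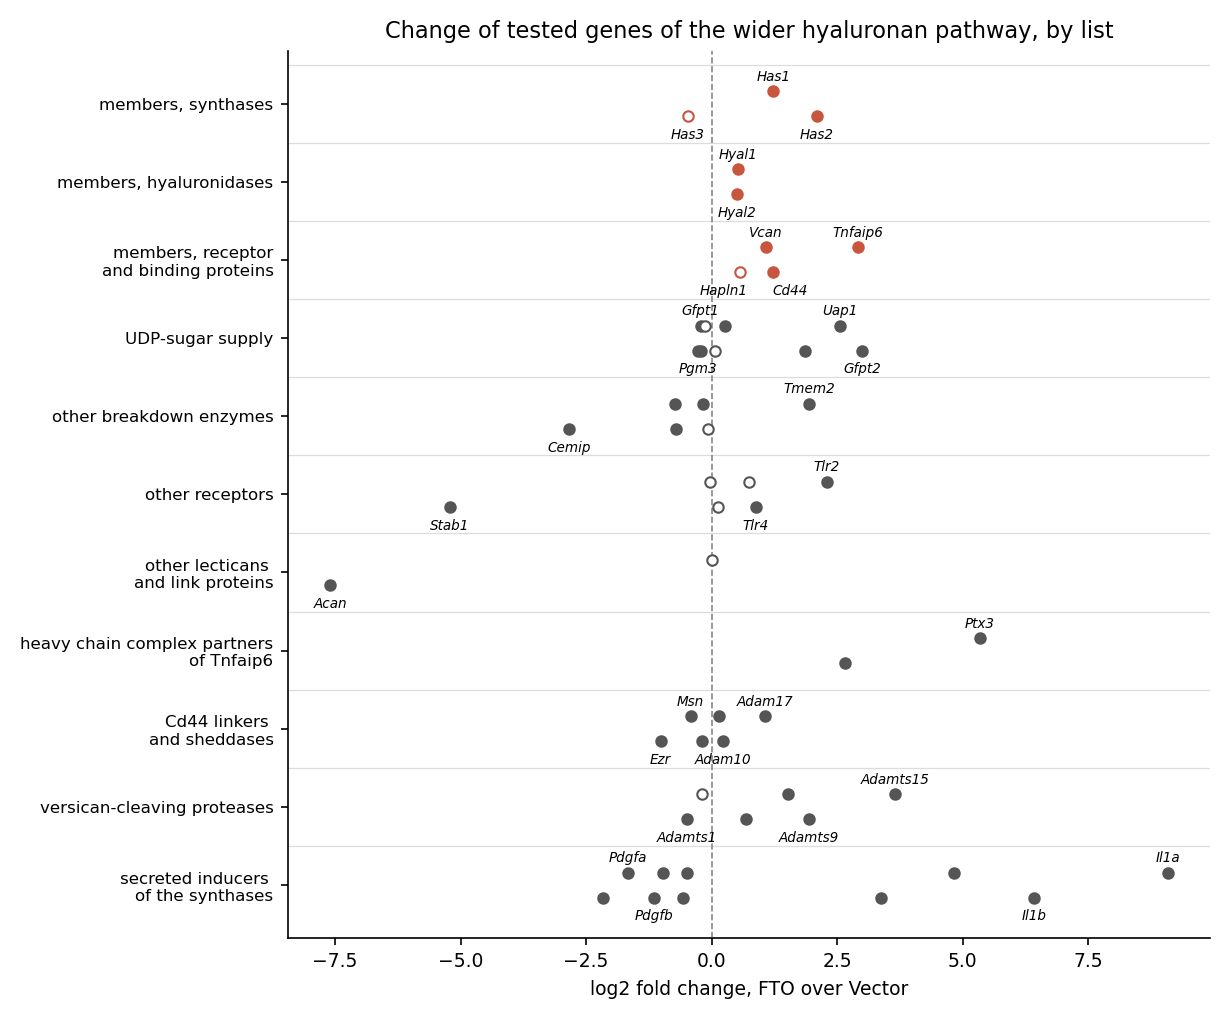
Log2FC of each tested gene, 1 row per list, with the 9 members in red and the genes of the wider lists in grey, where filled points passed an adjusted p of 0.05 and open points did not. The wider lists hold 20 genes to the right of 0 and 19 to the left among those that passed, and the fitted values of Il1a and of the unlabelled Itih2 depend on the prior count because their Vector libraries are at or under 3 counts.

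Markers of cell types differed between the groups as well, and their part in the values of the 9 genes was not tested. Of 10 fibroblast markers 4 rose and 6 fell, with a sum of 41028 to 41667 CPM in the Vector libraries and 20437 to 21484 CPM in those labelled FTO. Most of the Vector sum was Col1a1, from 25809 ± 337 to 8268 ± 377 CPM, and Col3a1, from 10699 ± 90.0 to 3338 ± 363 CPM. Dcn, among the 4 that rose, went from 47.0 ± 1.57 to 5611 ± 221 CPM. RNA of fibroblast markers was thus present in both groups. Of 8 cardiomyocyte markers 7 rose and 1 fell, summing to 1355 to 1388 and 2076 to 2135 CPM. Of 6 epicardial or mesothelial markers 4 rose, 1 fell and 1 did not pass, summing to 37.7 to 37.9 and 137 to 154 CPM. Most of the rise of this sum was Msln, from 2.83 ± 0.678 to 87.1 ± 5.64 CPM. Wt1 rose less, from 18.5 ± 1.08 to 26.4 ± 0.871 CPM, and Upk3b fell, from 4.61 ± 0.322 to 2.58 ± 0.535 CPM. Of 4 endothelial markers tested 3 rose and 1 did not pass, with sums over all 6 listed of 19.3 to 19.8 and 43.3 to 45.0 CPM, and of 4 mural cell markers 2 rose and 2 fell, with sums over the 5 listed of 325 to 338 and 205 to 243 CPM. The mural genes that fell were Notch3, from 226 ± 7.55 to 14.9 ± 2.98 CPM, and Cspg4, while Kcnj8 and Abcc9 rose. Single markers are named here after their values were seen. No marker of these 6 lists was at or under 3 counts in all libraries.

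The 3 genes named here followed Tnfaip6 most closely across the 6 libraries. The likeness was the root mean square distance between log2(CPM + 1) profiles, each set to its Vector mean, over 10036 genes with a mean of at least 100 counts. Ube2l6, a conjugating enzyme for the ubiquitin-like protein ISG15, was nearest at a distance of 0.0953 on the log2 scale, going from 12.5 ± 1.2 to 83.6 ± 6.62 CPM. Zc3h12a, an RNase that degrades inflammatory messenger RNAs, followed at 0.0984, from 19.3 ± 0.879 to 138 ± 7.11 CPM. Rcl1, a factor of ribosomal RNA processing, followed at 0.103, from 21.1 ± 1.11 to 147 ± 5.83 CPM. With 6 libraries in 2 groups, the profiles mostly reflect the size of the difference between the groups.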

How the data were processed

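The authors deposited raw counts, a whole number of reads per gene symbol and library, in a table for each of the 6 libraries. RNA was extracted with TRIzol, and NEBNext Ultra libraries were sequenced with Illumina chemistry. The submitters' processing notes name Trimmomatic and the rn6 build. The aligner, counting program, annotation, use of strand and treatment of multi-mapping reads are not given in the sources used here, so counts of overlapping genes are uncertain. The files give no coordinates, and promoters are on GRCr8.

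The genotype labels gave the groups, and the titles the replicate numbers. The filterByExpr function of edgeR 4.0.16 (minimum count 10) kept 12941 genes, which held 99.9% of the counts. Libraries were scaled by TMM and compared by the two-sided quasi-likelihood test in R 4.3.3, with Benjamini-Hochberg adjustment over all genes tested. Each SE is the log2 fold change divided by the root of its F statistic. The study names a threshold but no test for the RNA-seq in particular, and does not say whether its p was adjusted, so the unadjusted p was used with it. Within groups, counts of each pair of libraries differed by more than sampling noise (chi-square per degree of freedom 1.58 to 8.38). A floor of 3 counts was worth 0.168 to 0.228 CPM. Shares have exact Clopper-Pearson intervals, computed with scipy 1.17.1. The tables hold no counts of molecular identifiers, so intervals and floors cover counting error only.

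Of the wider lists, up to 2 genes were named in each direction, those with the largest fold changes among genes with an adjusted p under 0.05, separate group ranges and 20 or more counts on average. A gene that this rule selects is not reported here by name. The members and lists were chosen with earlier results of these data known. Alternatives were DESeq2 1.42.0, limma-voom (limma 3.58.1), other scalings and filters, a fit with a replicate block, glmTreat (threshold 1.2-fold) and fits that each omitted a library. Symbols of 16592 of the 21857 genes, all 9 members included, matched the RefSeq table.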

Additional observations from a re-analysis of the deposited data

How the results depend on the processing

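The number of hyaluronan genes past the adjusted threshold was 7 under all 14 alternatives. Past the study's threshold it was 5, except for 4 without FTO replicate 3, where Has1 had a log2 fold change of 0.98. Of the wider lists 39 genes passed, against 30 with glmTreat, which asks for a change of over 1.2-fold, and 40 without FTO replicate 3. Of the 33 genes followed through the alternatives, Pgm3, Gfpt1 and Adam10 lost their call under glmTreat, and no gene changed sign or gained a call. Fto passed under none, with adjusted p from 0.182 to 1.0. The log2 ratio of Hyal1 to Hyal2 differed between groups by -0.17 to 0.10 without single libraries, its sign depending on the library left out.

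No shared deviation of same-numbered libraries was seen, which does not settle whether the cultures were paired. Their deviations correlated at 0.003, -0.069 and 0.021 across genes, against -0.094 to 0.087 for other pairs. With the replicate number as a block, 7 hyaluronan genes passed the adjusted threshold, 5 the study's threshold and 39 genes of the wider lists passed, and 8399 genes passed over the whole table against 8531 without it.

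Depth limits Has3 and Hapln1, at 7 to 28 counts a library. Their 95% intervals of log2FC, -1.11 to 0.16 and -0.18 to 1.31, leave the size and the sign of a change undetermined. Transcript lengths were not used, so levels are compared between libraries and not between genes.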
